A study of Mus musculus with 24 samples.

Results

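Immediate early and activity-regulated genes were followed in the cortex of mice carrying inducible TREM2 constructs, with and without induction in microglia. The group held 36 genes, chosen by symbol from a table of read counts for 43346 genes: 7 AP-1 and related bZIP factors, 4 EGR zinc finger factors, 3 NR4A orphan nuclear receptors, 9 other regulators of transcription and growth, 9 phosphatases, kinases and other brakes on signalling, and 4 synaptic or secreted effectors. All 36 symbols were found once each, and all 36 were among the 19678 genes that passed the filter on low counts. Bulk RNA of the cortex was sequenced from 24 mice on a C57BL/6 background, as 1 library each, 6 in every one of 4 groups. The genotype was TREM2-WT+/+ (WT) or TREM2-R47H+/+ (R47H), where R47H is a form of this microglial receptor linked to the risk of Alzheimer's disease. Every mouse, controls included, also carried Cx3cr1CreER/+, a Cre recombinase that tamoxifen activates in cells using the Cx3cr1 promoter, which in the brain are mainly microglia. Tamoxifen was the inducing treatment (WT_induced, R47H_induced) and corn oil the control treatment (WT_control, R47H_control). Tamoxifen itself therefore differs between induced and control mice together with TREM2 expression, and these cannot be told apart. Likewise, any other difference between the WT and R47H mice goes with the TREM2 form and cannot be told apart from it. The series describes 3 males and 3 females per group, without giving the sex of each library, and their age is not stated in the sources used here.

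Immediate early genes are transcribed within minutes of a stimulus from factors already present in the cell, such as CREB and SRF, and need no new protein. In cortical neurons the stimulus is calcium entry through glutamate receptors and voltage-gated channels, and the products are first transcription factors (Fos, Egr1, Npas4) and then proteins that act at the synapse (Arc, Homer1) or switch the signal off (the dual-specificity phosphatases). Their RNAs are short-lived, so their level in a tissue reflects recent events, and glia and vessels use many of the same genes.

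The promoters of these genes are known for binding sites of the CREB family, whose full element is TGACGTCA and whose core is TGACG. Of the 36 genes, 27 had an entry in the RefSeq table of promoters (build GRCm38.p6, 27025 genes, 250 bases before to 50 after the start). On either strand, the full element was found in 4 of 27 (14.8%, against 2.03% of all genes in that table) and the core in 19 of 27 (70.4% against 23%). Each full element also holds the core. The EGR motif GCGNGGGCG was found in 9 of 27 (33.3% against 6.27%), the SRF site known as the CArG box in 2 of 27, in Egr2 and Dusp5 (7.41% against 1.81%), and the TATA box TATAAA in 6 of 27 (22.2% against 15.7%). The AP-1 motif TGANTCA and the NR4A motif AAAGGTCA were in 0 of the 27 windows, against 8.97% and 1.70% of all genes. The 250 bases upstream of the start are given below for 4 genes with the core, 3 transcription factors of different families that were followed in full and Junb, the gene most closely tied to Fos across libraries. Capitals mark the core on either strand (TGACG or CGTCA), the TATA box in Fos and the EGR motif in Nr4a1, which reads CGCCCCCGC on the strand shown.
Fos, chr12:85473640-85473889, plus strand: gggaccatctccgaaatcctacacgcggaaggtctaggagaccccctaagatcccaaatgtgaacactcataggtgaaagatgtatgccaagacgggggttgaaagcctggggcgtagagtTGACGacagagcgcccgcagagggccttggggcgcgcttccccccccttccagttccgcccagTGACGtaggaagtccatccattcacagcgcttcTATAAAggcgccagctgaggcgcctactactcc
Junb, chr8:84978749-84978998, minus strand: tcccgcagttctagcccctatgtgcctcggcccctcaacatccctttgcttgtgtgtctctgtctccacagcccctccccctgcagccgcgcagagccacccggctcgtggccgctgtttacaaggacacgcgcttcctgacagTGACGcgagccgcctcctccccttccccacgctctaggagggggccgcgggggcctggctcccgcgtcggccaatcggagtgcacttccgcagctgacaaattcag
Npas4, chr19:4989972-4990221, minus strand: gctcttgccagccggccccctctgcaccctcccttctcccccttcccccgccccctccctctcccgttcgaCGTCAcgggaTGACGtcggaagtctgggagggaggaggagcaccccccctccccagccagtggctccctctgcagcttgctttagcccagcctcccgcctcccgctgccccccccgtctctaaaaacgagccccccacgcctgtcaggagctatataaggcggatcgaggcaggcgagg
Nr4a1, chr15:101266596-101266845, plus strand: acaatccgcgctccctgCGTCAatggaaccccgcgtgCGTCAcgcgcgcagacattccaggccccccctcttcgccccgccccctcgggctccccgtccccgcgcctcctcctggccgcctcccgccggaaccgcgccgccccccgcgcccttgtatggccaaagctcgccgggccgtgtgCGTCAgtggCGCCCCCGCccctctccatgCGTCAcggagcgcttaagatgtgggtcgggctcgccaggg
Counted from the start of the gene, the 2 cores of Fos began at -129 and -66 and its TATA box at -33. Junb had 1 core, at -106. Npas4 had 2 cores close together on opposite strands, at -179 and -169, and Nr4a1 had 4, the nearest at -40. The letters describe these windows and were not tested as sites.

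Total counts ran from 27933505 to 56082520 per library. Levels are given as CPM, counts scaled to a common library size, with the size of each library first adjusted by its TMM normalization factor. The 3 RNAs grouped here as ribosomal-RNA-like (Yam1, AY036118 and Lars2) took 15.9% ± 3.18 of the counts (mean ± SD, n = 6) in WT_control and 18.3% ± 3.21 in WT_induced. In R47H mice they took 20.3% ± 2.73 with corn oil and 17% ± 1.69 with tamoxifen. Markers of cortical excitatory neurons were present, with Slc17a7 at a mean of 939 CPM over the 24 libraries, as were those of inhibitory neurons, astrocytes, oligodendrocytes and microglia (Cx3cr1 at 18.5 CPM). The 9 striatal markers measured were also present and had lower summed levels in R47H, with a median summed level of 1550 CPM in WT_control and in WT_induced, 1320 CPM in R47H_control and 1330 CPM in R47H_induced. WT_induced replicate 6 stood apart, with 10 microglial markers summing to 419 CPM against 250 to 286 CPM in the other 5 libraries of its group. Values of the immediate early genes without it are therefore given below, but not those of the microglial markers. Mouse Trem2 had medians of 6.35, 6.17, 8.07 and 6.52 CPM in WT_control, WT_induced, R47H_control and R47H_induced. Which species the TREM2 constructs come from is not stated in the labels, so mouse Trem2 does not check the induction. In bulk tissue, fewer cells of a type and less RNA per cell cannot be told apart.

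The 36 genes spanned a wide range of expression. Per kilobase of gene model, the highest mean levels over the 24 libraries were those of Plk2 (54.1 CPM per kb), a kinase of synaptic scaling, Egr1 (49.4), Arc (41.0), Egr3 (30.1) and Nr4a1 (27.5). The lowest were Maff (0.434 CPM per kb), Atf3 (0.443) and Klf4 (1.38). Fos, the best known of the group, ranked 13 of 36 at 11.8 CPM per kb, and Npas4, a factor that neurons make on calcium entry, ranked 21 at 6.05.

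The median spread between mice of the same group was larger for these genes than for all tested genes. The standard deviation between libraries within groups, on the log2 scale, had a median of 0.28 over the 36 genes and of 0.12 over all 19678. Egr2 (0.85), Npas4 (0.76), Fos (0.70), Btg2 (0.69) and Arc (0.66) were the most variable. Egr2 ran from 1.39 CPM in WT_induced replicate 3 to 14.3 CPM in WT_induced replicate 6, both mice of the same group. At the other end, Plk2 (0.06) and Rgs2 (0.08) varied less than the median gene, and Jun (0.12) stood at it.

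The levels of many of these genes went together from mouse to mouse. With group means removed, the 630 pairs of the 36 genes had a median Pearson r of 0.52 over the 24 libraries, and 52.7% of pairs were above 0.5, against a median of -0.002 and 2.89% of all pairs of tested genes. All values of a library share its RNA and its depth, so r is given as a description. Fos went with Junb (r = 0.97), its partner in AP-1, with Dusp1 (0.97), a nuclear phosphatase of MAP kinases, with Arc (0.96) and with Btg2 (0.94). Egr1 and Egr2 went together at 0.96. For the pair of Fos and Arc, Spearman's rho was 0.95, r was 0.95 without the 2 libraries farthest from the median of Fos, and r within the single groups was between 0.89 and 0.98. For Fos and Junb the corresponding values were 0.97, 0.97, and 0.97 to 0.99. Both pairs were close within every group. For Egr1 and Arc the values were 0.88, 0.87 and 0.86 to 0.95, from a pooled r of 0.89. For Nr4a1 and Dusp1 they were 0.84, 0.83 and 0.62 to 0.96, from a pooled r of 0.87. These 4 pairs were the only ones tested, by permutation of libraries within groups (two-sided, Benjamini-Hochberg adjusted over the 4). For r the adjusted permutation p was 1e-05, the smallest that 100000 permutations can give, except 2e-05 for Nr4a1 and Dusp1. For rho it was 1e-05 in all 4. The pairs were chosen with earlier results of these data known, and the adjustment does not cover the 630 pairs. Permuting libraries also breaks the RNA and depth that both genes of a pair share. These p-values therefore do not separate a link between the genes from what their libraries share. Fos and Junb had the highest r of all 630 pairs.

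A second set of genes, picked after the values of r were seen, followed Homer1, the postsynaptic scaffold protein, more closely than Fos. Homer1 had r = -0.07 with Fos, but 0.83 with Dusp4, 0.82 with Ier5, 0.80 with Nr4a3, 0.77 with Nr4a2, 0.73 with Fosl2 and 0.68 with both Egr3 and Klf10. Its lowest values were -0.36 with Gadd45g and -0.36 with Ier2. Egr1 (0.86 with Fos, 0.37 with Homer1), Fosb (0.86, 0.35), Dusp6 (0.61, 0.55) and Trib1 (0.72, 0.47) were positive with both, and Egr1 had the highest mean r with the other 35 genes, at 0.68. Inhba (0.23), Npas4 (0.27), Maff (0.27) and Homer1 (0.27) had the lowest. The counts are per gene, so the short activity-induced Homer1a could not be separated from the long forms. Across the members, r with the ribosomal-RNA-like share of a library ran from -0.32 (Egr3) to 0.44 (Gadd45g).

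**Figure D1:**
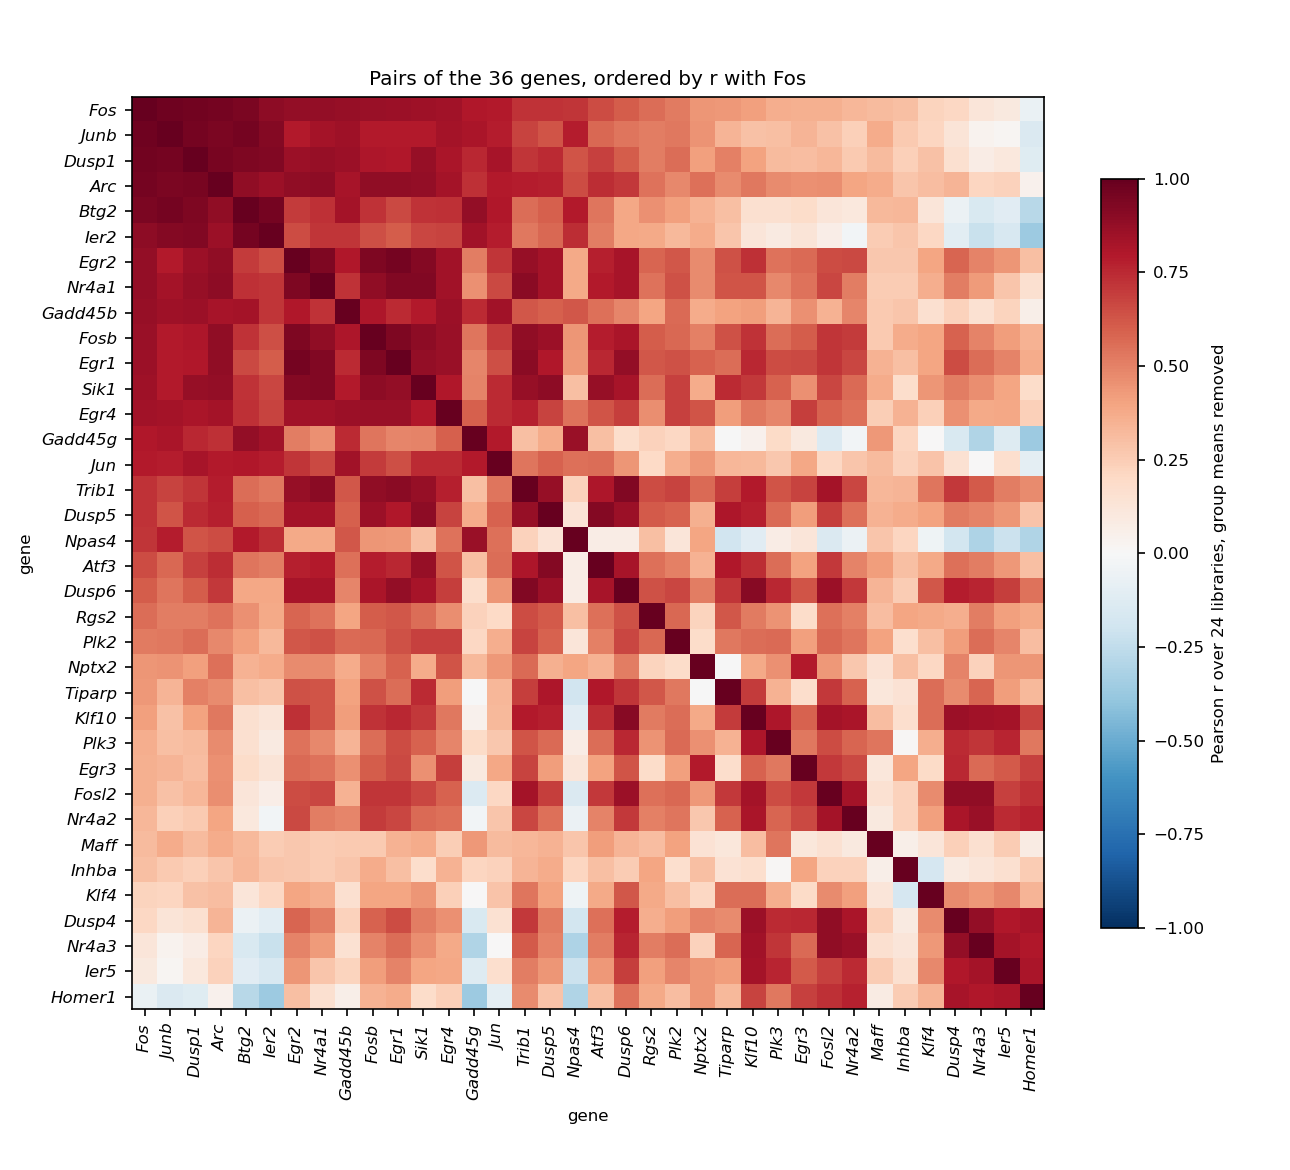
Pearson r between the log2 levels (CPM) of each pair of the 36 genes over 24 libraries, with the mean of each group removed; both axes list the genes in order of their r with Fos, and colour runs from -1 (blue) to 1 (red). The block at upper left holds Fos, Junb, Dusp1, Arc and Btg2, and the block at lower right holds Dusp4, Nr4a3, Ier5 and Homer1, the last of which is near or below 0 with Fos (r = -0.07).

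Outside the 36, the 10 tested genes whose r with them was highest on average were 1700016P03Rik (mean r 0.64), Ptgs2 (0.64), Csrnp1 (0.62), Arl4d (0.61), Mir212 (0.59), Mir132 (0.59), Gm14420 (0.57), Spry2 (0.57), Abhd15 (0.57) and Irf2bp2 (0.57), over 24 libraries. Ptgs2, the inducible cyclooxygenase, and Mir132 and Mir212, a pair of microRNA hairpins made from 1 transcript, are known targets of neuronal activity. Their order rests on small differences in r.

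Single mice were high or low across much of the group. All 36 genes were above their own 24-library median in WT_induced replicate 6, 35 were in R47H_induced replicate 1, 34 in WT_control replicate 2 and 33 in WT_induced replicate 4. Only 2 were in WT_control replicate 4 and in R47H_control replicate 2, and 3 in WT_induced replicate 3 and in R47H_control replicate 1. WT_induced thus held both high and low mice. In R47H_control, 5 of the 6 libraries had 2 to 10 genes above the median, and the other, replicate 5, had 25. In WT_control, 5 of the 6 had 21 to 34, and the other, replicate 4, had 2.

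**Figure D2:**
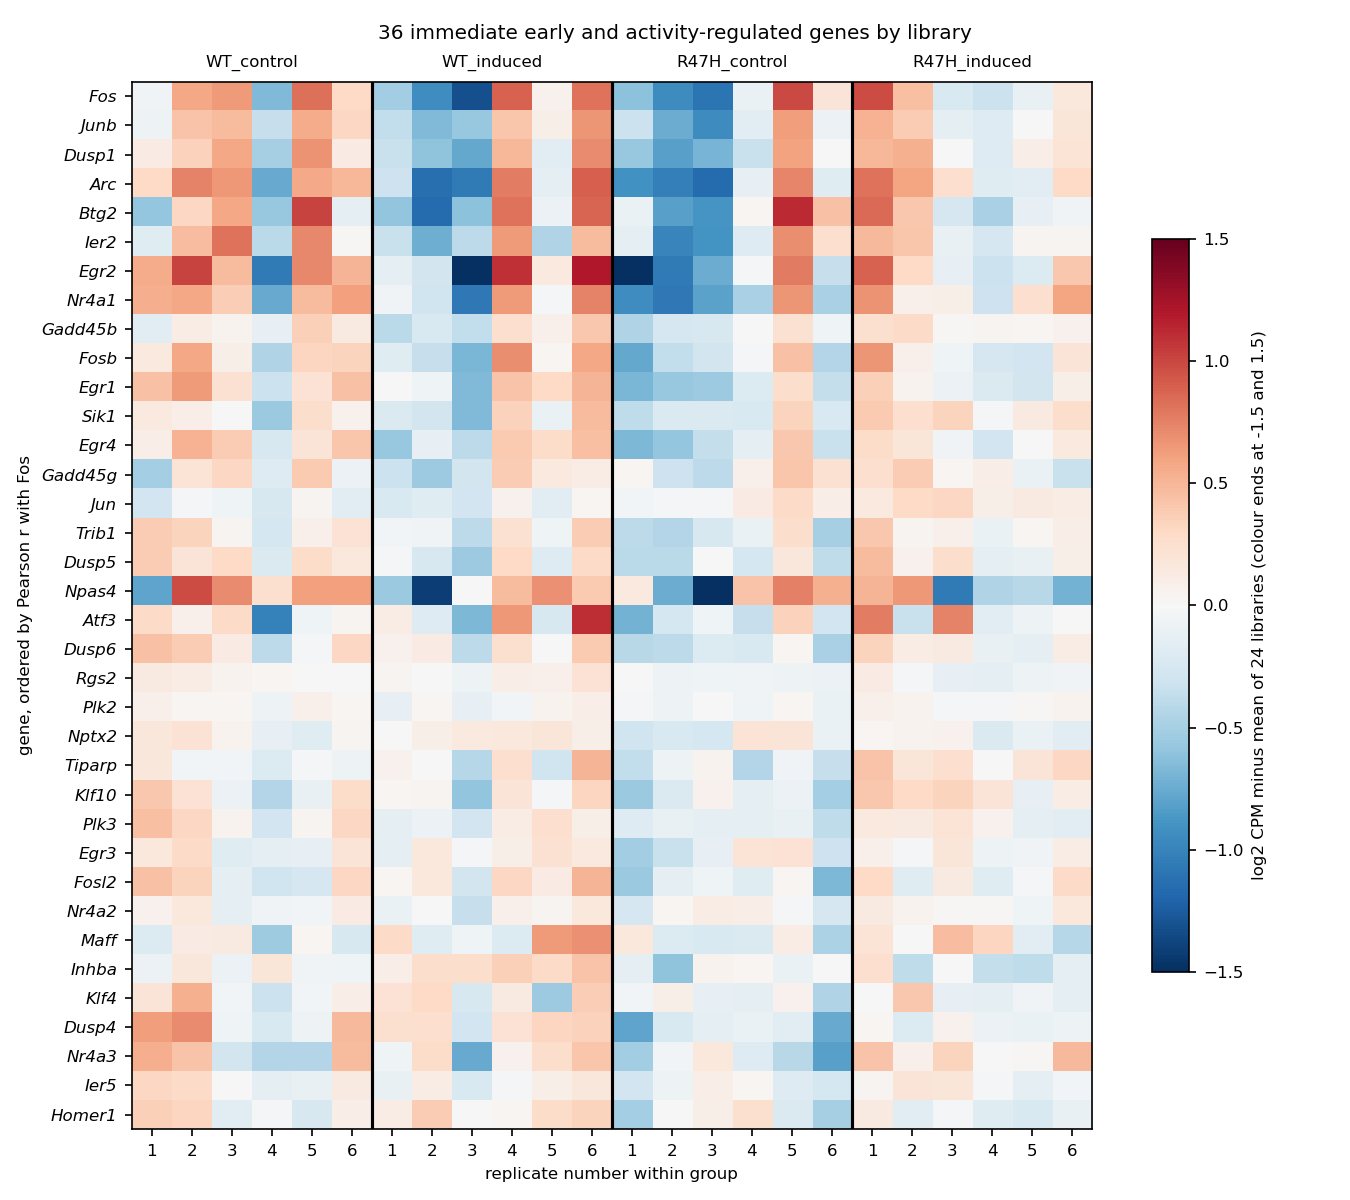
Level of each of the 36 genes (vertical axis, ordered by Pearson r with Fos) in each of the 24 libraries (horizontal axis, by group and replicate), as log2 CPM minus the gene's mean over the libraries; blue is below and red above the mean. WT_induced replicate 6, with 36 of 36 genes above their median, is red throughout, while WT_induced replicate 3, with 3 of 36, is mostly blue.

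Among the AP-1 factors, which pair as dimers on DNA, Fos had a lowest, median and highest library (in this order, here and below) of 15.8, 34.0 and 44.2 CPM in WT_control, 10.03, 21.7 and 46.1 CPM in WT_induced, 11.7, 19.7 and 49.3 CPM in R47H_control, and 20.04, 25.4 and 49.2 CPM in R47H_induced. In each group the highest mouse had more than 2 times the Fos of the lowest, and all groups overlapped. Junb, with a narrower spread, was at 33.1, 54.4 and 62.1 CPM in WT_control, 26.7, 38.8 and 66.7 CPM in WT_induced, 21.9, 35.4 and 65.1 CPM in R47H_control, and 36.7, 45.0 and 60.6 CPM in R47H_induced. Its lowest median was in R47H_control and its highest in WT_control, within overlapping groups. Fosl2, a Fos relative, was at 31.9, 42.0 and 53.2 CPM in WT_control, 32.4, 43.3 and 55.7 CPM in WT_induced, 24.5, 35.0 and 40.1 CPM in R47H_control, and 34.5, 40.9 and 48.3 CPM in R47H_induced. Here R47H_control held the lowest library and the lowest median. Jun behaved differently, with 34.7, 39.4 and 43.6 CPM in WT_control, 34.8, 37.8 and 44.4 CPM in WT_induced, 41.1, 43.6 and 51.7 CPM in R47H_control, and 45.3, 46.8 and 52.6 CPM in R47H_induced. Every R47H_induced library was above every WT_induced library. It was the only such separation among the 36 genes for any pair of groups compared. How often other tested genes separated in this way was not counted, so this separation has no background to be read against. The R47H_control libraries overlapped those of WT_control only in part. Of the other members, Fosb ran from 8.22 to 22.8 CPM over the 24 libraries, Atf3, a stress-induced ATF factor, from 0.446 to 1.94, and Maff, a small Maf protein, from 0.619 to 1.44.

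The EGR factors bind a GC-rich motif and take part in lasting synaptic change. Egr1 was at 171, 269 and 334 CPM in WT_control, 135, 239 and 305 CPM in WT_induced, 132, 157 and 257 CPM in R47H_control, and 177, 212 and 275 CPM in R47H_induced. In WT_control 3 libraries were above all of R47H_control, while the lowest library of WT_control lay inside the R47H_control range. Egr2 was much scarcer, with 3.00, 9.05 and 12.7 CPM in WT_control, 1.39, 6.28 and 14.3 CPM in WT_induced, 2.04, 4.31 and 10.7 CPM in R47H_control, and 4.99, 6.70 and 11.5 CPM in R47H_induced. Its groups overlapped, and the lowest library of all was in WT_induced. Egr4 was at 18.9, 27.4 and 32.1 CPM in WT_control, 15.1, 23.9 and 30.6 CPM in WT_induced, 14.0, 17.6 and 29.6 CPM in R47H_control, and 18.4, 23.5 and 27.0 CPM in R47H_induced. The WT_control median was again the highest and that of R47H_control the lowest. Egr3 ran from 29.6 to 51.7 CPM over all libraries.

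The NR4A receptors act without a known hormone and are switched on by cAMP and calcium. Nr4a1 was at 37.1, 89.4 and 95.8 CPM in WT_control, 29.7, 61.0 and 105 CPM in WT_induced, 29.6, 40.4 and 99.0 CPM in R47H_control, and 50.6, 70.6 and 100.4 CPM in R47H_induced. In R47H_control 5 mice were at 44.9 CPM or lower and replicate 5 was at 99.0 CPM, and in WT_control 5 mice were at 80.7 CPM or higher and replicate 4 was at 37.1 CPM, so the groups overlapped through 1 mouse each. Nr4a3 was at 19.4, 28.6 and 38.7 CPM in WT_control, 15.7, 29.6 and 35.2 CPM in WT_induced, 15.0, 21.5 and 29.6 CPM in R47H_control, and 26.4, 30.6 and 37.0 CPM in R47H_induced. Its R47H_induced libraries were mostly above those of R47H_control, with overlap. Nr4a2 was steady, at 30.7, 34.1 and 37.9 CPM in WT_control, 26.6, 34.5 and 37.8 CPM in WT_induced, 28.4, 34.0 and 36.5 CPM in R47H_control, and 32.4, 34.7 and 37.7 CPM in R47H_induced. Its 4 medians differed by less than the spread within any group.

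**Figure D3:**
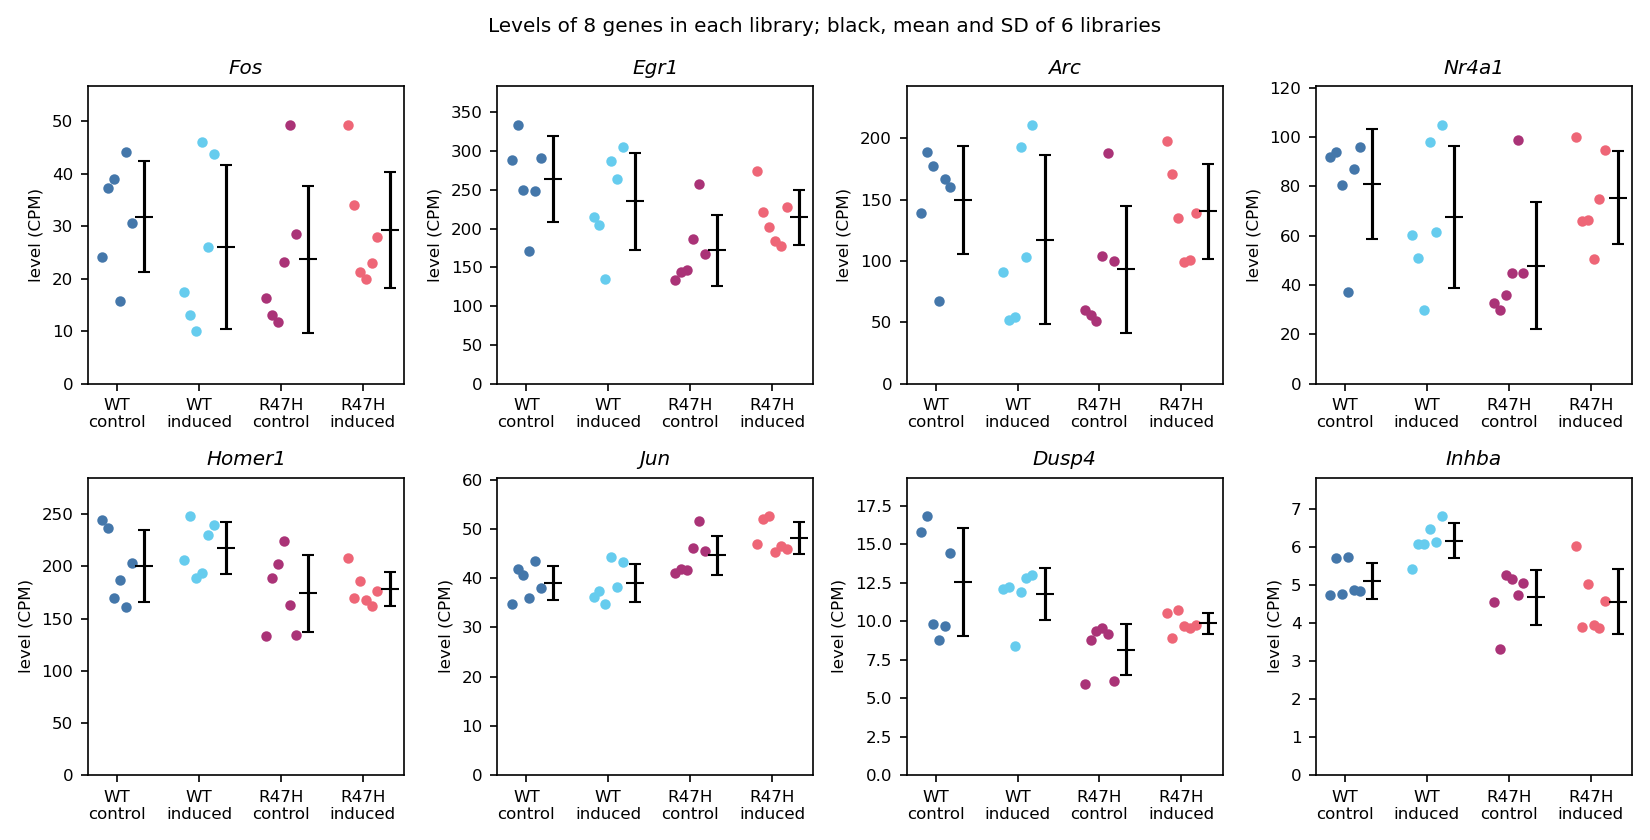
Levels in CPM (vertical axes, starting at 0) of 8 genes in each of the 24 libraries by group (horizontal axes); points are libraries, and black bars give the mean and SD of 6. Fos, Arc and Nr4a1 spread widely within groups, whereas the Jun points of R47H_induced (45.3 to 52.6 CPM) lie above those of WT_induced (34.8 to 44.4 CPM).

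Among the other regulators, Npas4 was at 10.2, 27.1 and 35.0 CPM in WT_control, 6.64, 20.4 and 28.5 CPM in WT_induced, 5.88, 21.7 and 30.0 CPM in R47H_control, and 8.52, 13.2 and 27.7 CPM in R47H_induced. Its lowest and highest libraries differed 5.95-fold, and both low and high mice occurred in every group. Klf10, a zinc finger factor of the TGF-beta response, was at 19.2, 27.3 and 34.5 CPM in WT_control, 17.2, 26.7 and 32.4 CPM in WT_induced, 17.6, 22.9 and 27.2 CPM in R47H_control, and 23.8, 30.9 and 34.5 CPM in R47H_induced. R47H_induced had the highest median and R47H_control the lowest. Tiparp, an enzyme that attaches ADP-ribose to proteins, was at 13.9, 15.6 and 17.9 CPM in WT_control, 11.9, 16.4 and 22.7 CPM in WT_induced, 11.8, 13.9 and 16.6 CPM in R47H_control, and 16.1, 18.6 and 21.5 CPM in R47H_induced. Its R47H_induced libraries stood toward the upper end of all 24. Ier5 was at 56.8, 65.2 and 76.9 CPM in WT_control, 53.0, 63.5 and 70.0 CPM in WT_induced, 51.0, 56.6 and 66.7 CPM in R47H_control, and 56.2, 62.3 and 71.3 CPM in R47H_induced. The R47H_control median was the lowest of the 4. Over all libraries Btg2, a brake on cell division, ran from 7.57 to 36.5 CPM, Ier2 from 3.27 to 11.4, Klf4 from 2.84 to 6.01, and the stress proteins Gadd45b and Gadd45g from 5.18 to 9.42 and from 5.20 to 10.1 CPM.

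Feedback genes is the name used here for the phosphatases, kinases and other brakes on signalling, many of which restrain the signals behind the others. Dusp4, a phosphatase of MAP kinases in the nucleus, was at 8.74, 12.1 and 16.8 CPM in WT_control, 8.39, 12.2 and 13.0 CPM in WT_induced, 5.94, 8.96 and 9.56 CPM in R47H_control, and 8.90, 9.70 and 10.7 CPM in R47H_induced. It is given in full because it passed the test below, a choice made after its values were seen. Of the 6 WT_control libraries, 5 were above all of R47H_control, and those 6 fell into a high trio (replicates 1, 2 and 6) and a low trio. Plk3, a polo-like stress kinase, was at 6.64, 9.19 and 11.04 CPM in WT_control, 6.61, 8.06 and 9.64 CPM in WT_induced, 6.18, 7.33 and 7.48 CPM in R47H_control, and 7.17, 8.65 and 9.30 CPM in R47H_induced. Again 5 WT_control libraries were above all of R47H_control, and the remaining one, replicate 4, lay inside its range. Dusp5, a phosphatase of nuclear ERK, was at 7.78, 10.7 and 11.8 CPM in WT_control, 6.24, 8.40 and 11.2 CPM in WT_induced, 6.83, 7.27 and 10.2 CPM in R47H_control, and 8.20, 9.57 and 12.6 CPM in R47H_induced. Its median was highest in WT_control and lowest in R47H_control, but 22.1% of its exon bases are shared with another annotated gene, so without strand its counts are uncertain. Dusp6, the phosphatase of cytoplasmic ERK, was at 35.4, 54.1 and 62.9 CPM in WT_control, 35.2, 49.5 and 60.9 CPM in WT_induced, 33.1, 37.5 and 47.3 CPM in R47H_control, and 41.8, 50.1 and 58.7 CPM in R47H_induced. Here 5 R47H_control libraries were below all of R47H_induced, and 4 WT_control libraries were above all of R47H_control. Dusp1 ran from 15.4 to 44.3 CPM over the 24 libraries, Sik1, a kinase that restrains CREB co-activators, from 9.71 to 21.3, the pseudokinase Trib1 from 11.7 to 21.7, Plk2 from 139 to 162, and Rgs2, which shortens G-protein signals, from 44.3 to 57.1 CPM.

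Of the effectors, Arc, which drives removal of AMPA receptors from the synapse, was at 67.0, 164 and 189 CPM in WT_control, 51.5, 97.3 and 211 CPM in WT_induced, 50.8, 79.8 and 188 CPM in R47H_control, and 99.3, 137 and 198 CPM in R47H_induced. The other 3 groups ranged widely, whereas no R47H_induced library was below 99.3 CPM. Homer1 was at 161, 195 and 244 CPM in WT_control, 189, 218 and 248 CPM in WT_induced, 133, 176 and 224 CPM in R47H_control, and 162, 173 and 208 CPM in R47H_induced. The WT groups had the higher medians, with overlap throughout. Inhba, the subunit that forms activin A, was at 4.75, 4.86 and 5.75 CPM in WT_control, 5.44, 6.12 and 6.82 CPM in WT_induced, 3.32, 4.90 and 5.26 CPM in R47H_control, and 3.88, 4.28 and 6.05 CPM in R47H_induced. In WT_induced 5 of 6 libraries were above all of R47H_induced, and the highest R47H_induced library, replicate 1, was the one that overlapped. Nptx2, a secreted pentraxin that clusters AMPA receptors, ran from 31.1 to 44.5 CPM over all libraries.

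The first comparison was between genotypes in mice that received corn oil. Nearly all of the group was lower in R47H_control than in WT_control by fitted log2 fold change, at 35 of 36 genes with a median of -0.32, whereas 9929 of all 19678 tested genes were lower, with a median of -0.0012. Jun was the only gene on the positive side. Few of these differences passed the test: 2 of the 36 were called at an edgeR adjusted p below 0.05 (5.56%), beside 5.74% of all tested genes, so the count of calls was near the background. At an unadjusted p below 0.05 there were 12 of the 36, and 4037 of all 19678. The genes are not independent of each other, as the values of r above show, and their common direction was given no test of its own.

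The 2 called lower in R47H_control were Dusp4 and Plk3. Dusp4 was at -0.62 (SE 0.16) with an edgeR adjusted p of 0.0232, and Plk3 at -0.34 (SE 0.10) with 0.0403. Either call rested on single mice. That of Dusp4 was lost without WT_control replicate 1, 2 or 6 or R47H_control replicate 1 or 6, with adjusted p between 0.0559 and 0.0604. That of Plk3 was lost without WT_control replicate 1, 2 or 6 or any 1 of the 6 R47H_control libraries, with adjusted p between 0.0536 and 0.115. With the ribosomal-RNA-like share as a covariate the adjusted p was 0.138 for Dusp4 and 0.191 for Plk3, and 0 members were called. Of the tested genes within 5 Mb of Dusp4, 0 of 40 were called in this comparison, and 4 of 116 were near Plk3.

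Larger fitted differences than that of Dusp4 belonged to 3 more variable genes, and the difference of Egr1 was of the same size, but none of these passed. Egr2 was at -0.78 (SE 0.45), Nr4a1 at -0.76 (SE 0.32), Arc at -0.68 (SE 0.38) and Egr1 at -0.61 (SE 0.20), with adjusted p of 0.35, 0.179, 0.323 and 0.0695. Fos was at -0.42 (SE 0.40) and Junb at -0.44 (SE 0.26). The 95% interval of Fos, -1.21 to 0.37, includes 0. R47H_control replicate 5, the one mouse of its group with high levels, weighed on this comparison. Without it 6 genes were called lower, namely Egr1 at -0.77, Egr4 at -0.65, Nr4a1 at -1.11, Dusp4 at -0.65, Dusp6 at -0.51 and Trib1 at -0.48. Without WT_control replicate 4, the low mouse of the other group, 4 were called: Egr1, Dusp4, Dusp6 and Plk3. Without WT_induced replicate 3, which enters only through the shared fit, the same count was 4, again Egr1, Dusp4, Dusp6 and Plk3. Leaving out WT_control replicate 1, 2 or 6, or R47H_control replicate 1 or 6, left 0 called, and leaving out R47H_control replicate 2, 3 or 4 left 1. Calls over all tested genes in these fits are not given, so these counts have no background beside them. The number with a higher value in R47H_control ranged from 1 to 4 of 36 over the 24 libraries left out, with medians of -0.39 to -0.24.

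Split by role, the fitted values were negative for 6 of 7 AP-1 factors and for all members of the other 5 roles: 4 of 4 EGR factors, 3 of 3 NR4A receptors, 9 of 9 other regulators, 9 of 9 feedback genes and 4 of 4 effectors. Gadd45g (-0.02), Maff (-0.03), Nr4a2 (-0.06), Plk2 (-0.07) and Btg2 (-0.09) were nearest to 0. Rgs2, whose libraries agree closely, was at -0.11 (SE 0.04) with an adjusted p of 0.119. Jun was at 0.19 (SE 0.07) with 0.0915.

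Other measures moved with this comparison. The ribosomal-RNA-like share had means of 15.9% and 20.3% in WT_control and R47H_control. With this share as a covariate, 35 of 36 members still had negative values, with a median of -0.32, but several single values moved further from 0. Fos was then at -0.90 (SE 0.46), Junb at -0.73 (SE 0.30) and Arc at -1.07 (SE 0.44), and none of them passed. The 10 excitatory neuron markers summed to 2140 to 2260 CPM in WT_control and 1920 to 2140 CPM in R47H_control, and 8 of 10 had lower values in R47H_control, 2 of them called. The 9 striatal markers summed to 1410 to 1620 CPM and 1250 to 1380 CPM, and all 9 had lower values, 6 of them called. The 10 microglial markers summed to 267 to 282 CPM and 276 to 304 CPM, and all 10 had higher values in R47H_control, 0 of them called. The choroid plexus list summed to 18.9 to 384 CPM in WT_control and 34.1 to 554 CPM in R47H_control. The part of these cell types in the result was not tested.

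**Figure D4:**
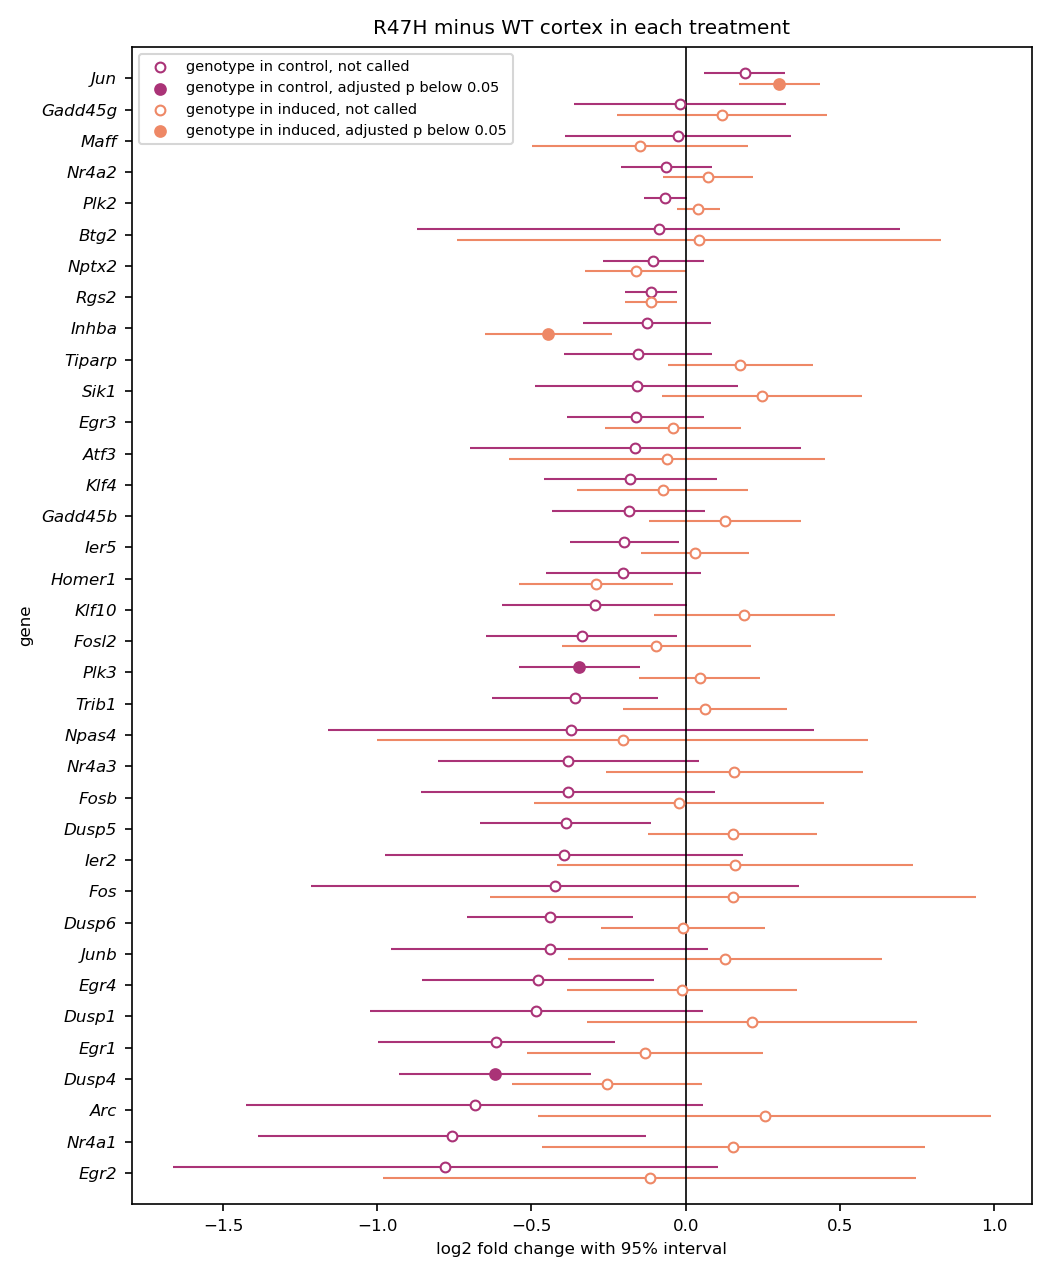
Fitted log2 fold change of R47H against WT (horizontal axis, with 95% intervals) for each of the 36 genes (vertical axis), in control mice (purple) and induced mice (orange); filled points passed an edgeR adjusted p below 0.05. In control mice 35 of 36 points lie left of 0, with Dusp4 and Plk3 filled, and in induced mice the points lie on both sides, with Jun filled to the right and Inhba to the left.

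In tamoxifen-treated mice the genotypes did not show this common direction. Of the 36 genes 20 had higher values in R47H_induced and 16 lower, with a median of 0.04, beside 9937 of 19678 tested genes on the positive side. Again 2 members were called (5.56%, beside 5.80% of all tested genes). Jun was higher in R47H_induced, at 0.30 (SE 0.07) with an edgeR adjusted p of 0.00626, and Inhba was lower, at -0.45 (SE 0.10) with 0.00974. Both calls held with each of the 24 libraries left out in turn, with Jun at 0.27 to 0.34 and an adjusted p of at most 0.0203, and Inhba at an adjusted p of at most 0.0308. Without WT_induced replicate 6 Jun was at 0.34 and Inhba at -0.42. Among tested genes within 5 Mb, 1 of 38 near Jun and 2 of 39 near Inhba were called in this comparison. In Jun, 7.28% of the exon bases are shared with the antisense gene Junos, whose reads cannot be told apart here.

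No other member passed in induced mice. Fos was at 0.15 (SE 0.40), Egr1 at -0.13 (SE 0.20), Arc at 0.26 (SE 0.37), Npas4 at -0.20 (SE 0.41) and Nr4a1 at 0.15 (SE 0.32). With the ribosomal-RNA-like share as a covariate Fos was at 0.36 (SE 0.39) and Arc at 0.45 (SE 0.38), with 25 members positive. Homer1 had -0.29 (SE 0.13) with an unadjusted p of 0.034 and an adjusted p of 0.203, and Rgs2 had -0.11 (SE 0.04) with 0.0138 and 0.124. Without R47H_induced replicate 1 Rgs2 was called too, at -0.15. Without WT_induced replicate 6 the number of positive members was 25 and the median 0.13, and without WT_induced replicate 3 these were 15 and -0.01. Whether a single gene differed between genotypes more in control than in induced mice is the same question as the difference of inductions, which is given last. The striatal markers summed to 1500 to 1620 CPM in WT_induced and 1240 to 1430 CPM in R47H_induced, and 4 of 9 were called lower; their part in the calls of Jun and Inhba was not tested.

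Tamoxifen against corn oil in WT mice gave no called member, and 0% of all 19678 genes passed (lowest adjusted p 0.206, and 0.511 among the members). Of the 36, 9 had positive and 27 negative values, with a median of -0.08. At an unadjusted p below 0.05 there was 1, Inhba, at 0.27 (SE 0.10) with an unadjusted p of 0.0134, and 1545 of all tested genes; DESeq2 called 10 genes, 0 of them members. Fos was at -0.28 (SE 0.40), Arc at -0.35 (SE 0.37), Npas4 at -0.40 (SE 0.40), Egr1 at -0.17 (SE 0.19) and Homer1 at 0.12 (SE 0.13). These intervals are wide, that of Arc running from -1.09 to 0.38. The values depended on single mice: without WT_induced replicate 3, which was low in most of the group, 18 of 36 were positive with a median of -0.01, and without WT_induced replicate 6, which was high in all of it, 6 were positive with a median of -0.14. The ribosomal-RNA-like share had means of 15.9% in WT_control and 18.3% in WT_induced. With it as a covariate the members' median was -0.12, with Fos at -0.64 (SE 0.42) and Arc at -0.67 (SE 0.41), and 0 members were called. Of the marker lists, 7 of 10 microglial, 8 of 8 astrocyte, 8 of 8 endothelial and 7 of 8 oligodendrocyte markers had positive values. Excitatory neuron markers went with most members, with 8 of 10 negative (median -0.05), 4 of them at an unadjusted edgeR p below 0.05. Of all these markers 0 were called. The summed microglial markers had a median of 275 CPM in both groups, with WT_induced replicate 6 at 419 CPM, and their fits without it are not given. The part of these cell types in the result was not tested.

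In R47H mice the same contrast leaned upward, and again no member was called. The values were positive for 33 of 36 genes with a median of 0.27, beside 10368 of 19678 tested genes with a median of 0.0039, and 0% of all genes passed (lowest adjusted p 0.429, and 0.88 among the members). The same R47H_control libraries entered the genotype comparison in control mice, where 35 of 36 genes were lower in them. The upward lean is therefore not a separate finding from that one. At an unadjusted p below 0.05 there were 8 of 36 members and 1006 of all tested genes; DESeq2 called 4 genes, 0 of them members. Tiparp had the lowest p of the group, at 0.42 (SE 0.12) with an unadjusted p of 0.0025 and an adjusted p of 0.88. Klf10 was at 0.43 (SE 0.15), Dusp6 at 0.35 (SE 0.14), Nr4a3 at 0.50 (SE 0.22) and Nr4a1 at 0.65 (SE 0.32). Arc was at 0.59 (SE 0.38), Egr1 at 0.32 (SE 0.20) and Fos at 0.29 (SE 0.41). The 3 genes with negative values were Npas4 (-0.24), Inhba (-0.05) and Btg2 (-0.02). The median ran from 0.20 without R47H_induced replicate 1 to 0.38 without R47H_control replicate 5, and the count of positive members from 29 to 34. The ribosomal-RNA-like share had means of 20.3% in R47H_control and 17% in R47H_induced; with it as a covariate 33 members were positive, with a median of 0.35, Fos was at 0.63 (SE 0.42) and Npas4 at 0.01 (SE 0.44). The 10 microglial markers summed to 276 to 304 CPM in R47H_control and 256 to 277 CPM in R47H_induced, and 9 of 10 had negative values with a median of -0.12. P2ry12 was at -0.22 (SE 0.06), Cx3cr1 at -0.22 (SE 0.07) and Trem2 at -0.25 (SE 0.10), with edgeR adjusted p of 0.791, 0.945 and 0.945. Excitatory neuron markers went with the members, with 8 of 10 positive (median 0.02), whereas 7 of 10 inhibitory neuron markers were negative, 0 of them called. The part of microglia and neurons in the result was not tested.

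**Figure D5:**
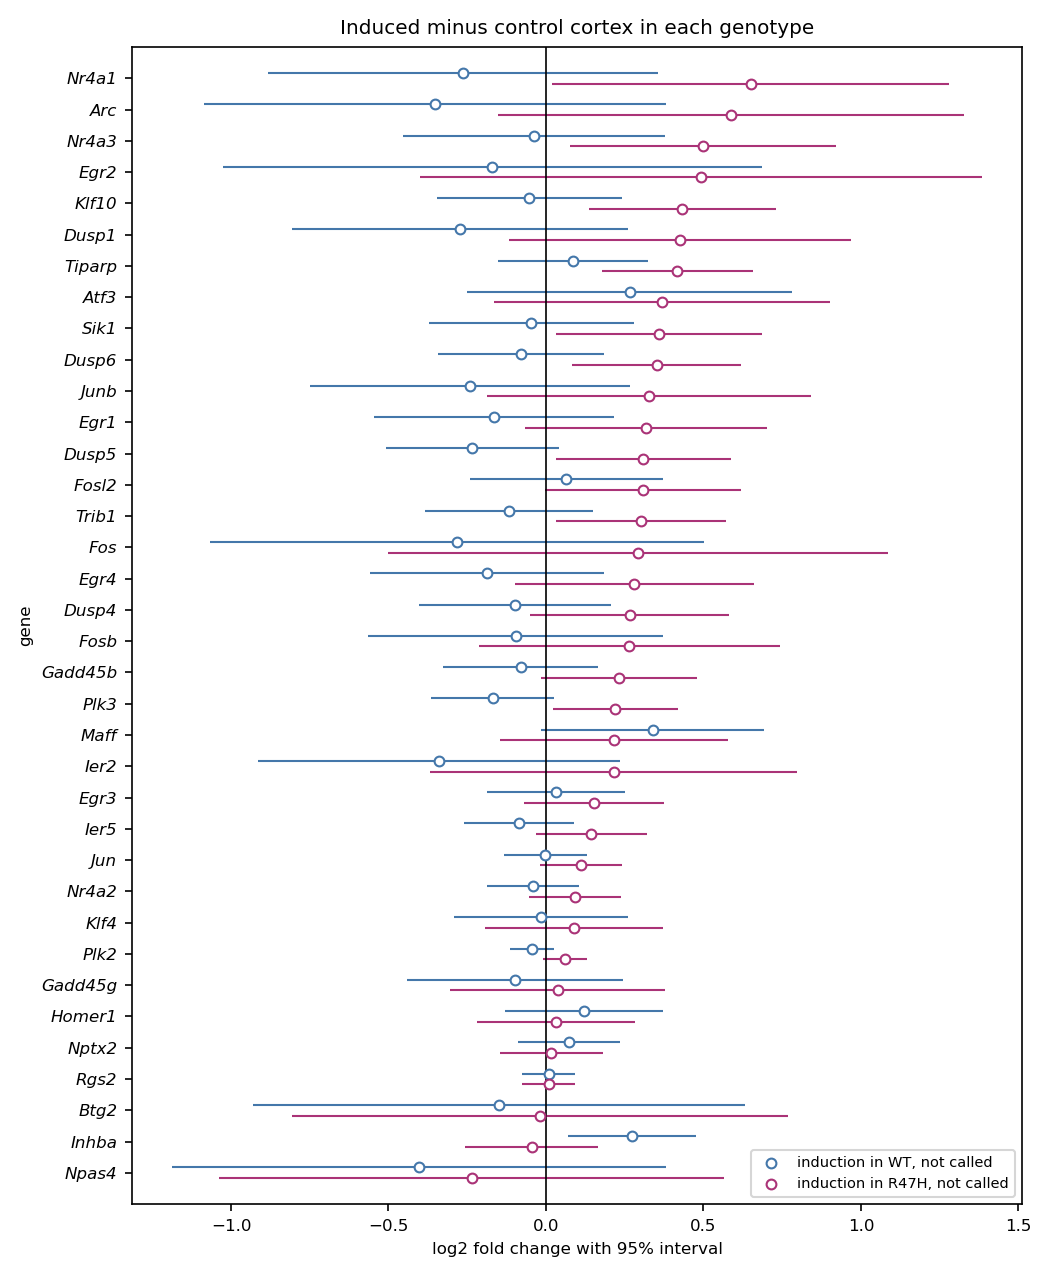
Fitted log2 fold change of induced against control mice (horizontal axis, with 95% intervals) for each of the 36 genes (vertical axis), in WT mice (blue) and R47H mice (purple); no gene passed an adjusted p below 0.05, so all points are open. In R47H mice 33 of 36 points lie right of 0, and in WT mice 9 do.

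The difference of these inductions, R47H minus WT, asks whether the response to induction differed between the mice of the WT and R47H genotypes. It uses the same 4 groups as the comparisons above, so its values are not further evidence beside them. It was positive for 32 of 36 genes with a median of 0.35, beside 10035 of 19678 tested genes with a median of 0.0027, and no member was called, as for 0% of all genes (lowest adjusted p 0.303, and 0.562 among the members). DESeq2 called 3 genes, 0 of them members, and at an unadjusted p below 0.05 edgeR gave 7 of 36 members and 1562 of all tested genes. The lowest p of the group were those of Plk3 at 0.39 (SE 0.14) with an unadjusted edgeR p of 0.0106 and Dusp5 at 0.54 (SE 0.20) with 0.012. Klf10 followed at 0.49 (SE 0.21) with 0.0339. Dusp6 (0.43), Trib1 (0.42), Plk2 (0.11) and Inhba (-0.32) were the others below 0.05. Markers of some cell types ran the other way. All 10 microglial markers were negative (median -0.24), with C1qa at -0.49, Tmem119 at -0.30 and Trem2 at -0.30. Also negative were 8 of 8 endothelial (median -0.11), 7 of 8 astrocyte (median -0.10) and 8 of 10 inhibitory neuron markers (median -0.08). Excitatory neuron markers went with the members, with 8 of 10 positive (median 0.07), as did 5 of 8 oligodendrocyte markers (median 0.03). Of all these markers 0 were called. The microglial values include WT_induced replicate 6, whose microglial sum of 419 CPM stood apart, and are not given without it. The part of these cell types in the result was not tested.

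The ribosomal-RNA-like RNAs also differed in this comparison without passing, with Yam1 at -0.57 (SE 0.23) and AY036118 at -0.56 (SE 0.23). Lars2 differed less, at -0.24 (SE 0.16). With their share of a library as a covariate the members' median was 0.46, with 33 positive and 0 called. Several values were then over 1.5 times larger, such as Fos at 1.27 (SE 0.65), Junb at 0.98 (SE 0.42), Egr2 at 1.21 (SE 0.74) and Arc at 1.52 (SE 0.62).

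Without the covariate, the genes with the largest fitted differences had large errors. Arc was at 0.94 (SE 0.53), with an interval of -0.10 to 1.98, and Nr4a1 at 0.91 (SE 0.45), with 0.03 to 1.80. Fos was at 0.58 (SE 0.57), Egr1 at 0.48 (SE 0.28), Junb at 0.57 (SE 0.37), Egr2 at 0.66 (SE 0.63), Egr4 at 0.47 (SE 0.27) and Npas4 at 0.17 (SE 0.57). Among the genes that followed Homer1 across libraries, Homer1 itself was at -0.09 (SE 0.18), Dusp4 at 0.36 (SE 0.22), Ier5 at 0.23 (SE 0.13), Nr4a2 at 0.13 (SE 0.11), Fosl2 at 0.24 (SE 0.22) and Nr4a3 at 0.54 (SE 0.30). The 4 genes on the negative side were Inhba, Homer1, Maff (-0.12) and Nptx2 (-0.06). Tiparp was at 0.33 (SE 0.17), and Jun at 0.11 (SE 0.09), so the higher Jun of R47H mice was not shown to depend on treatment. Without WT_induced replicate 6 the median was 0.41 with 32 positive, and without WT_induced replicate 3 it was 0.25 with 30 positive. Without WT_induced replicate 6 Arc was at 1.19 and Nr4a1 at 1.08.

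A further 3 lists place the group in its pathway. They were chosen with earlier results of these data known, so their shares of calls are descriptions and do not show enrichment. Among 38 other immediate early or stimulus-induced genes, 30 had positive values for induction in R47H mice (median 0.12) and 18 in WT mice (median -0.01), with 0 called in either. The lowest p for the difference of inductions were those of Per1, a clock gene that CREB induces, at 0.53 (SE 0.15), of Siah2, a ubiquitin ligase, at 0.20 (SE 0.07) and of Bhlhe40, a clock-linked repressor, at 0.34 (SE 0.12), with adjusted p of 0.433, 0.56 and 0.562. Between genotypes in control mice 28 of 38 were lower and 4 were called (10.5%, beside 5.74% of all tested genes): Dusp14 at -0.44 (SE 0.05), Ptgs2 at -0.43 (SE 0.12), Spry2, an inhibitor of growth factor signalling, at -0.26 (SE 0.05) and Arl5b at -0.20 (SE 0.06). In induced mice 4 of 38 were called (10.5%, beside 5.80%): Dusp14 (-0.34) and Ptgs2 (-0.47) fell and Ifrd1 (0.22) and Sgk1 (0.44), a kinase that steroid hormones induce, rose in R47H_induced.

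Late response genes, which follow the early factors by hours and encode secreted peptides and synaptic proteins, were often called between genotypes. In induced mice 10 of 20 were called (50%, beside 5.80% of all tested genes), all lower in R47H_induced. This list too was chosen with earlier results known, so its shares are descriptions. Bdnf, a neurotrophin, was at -0.46 (SE 0.09), the neuropeptide precursor Vgf at -0.38 (SE 0.06), Cort at -0.73 (SE 0.14), Crh at -0.42 (SE 0.11) and Acan, of the perineuronal net, at -0.28 (SE 0.08). The others were Penk (-0.29), Npy (-0.28), Pdyn (-0.26), Scg2 (-0.15) and Kcna1 (-0.14). In control mice 5 of 20 were called lower (25%, beside 5.74%): Bdnf at -0.46 (SE 0.09), Vgf at -0.34 (SE 0.06), Penk at -0.19 (SE 0.05), Rasgrp1 at -0.14 (SE 0.04) and Kcna1 at -0.13 (SE 0.03). Penk is also one of the striatal markers, of which all 9 had lower values in R47H mice in either treatment. The part of striatal tissue in the values of this whole list, not only in that of Penk, was not tested. Npy and Sst are also on the list of inhibitory neuron markers, of which 8 of 10 had lower values in R47H_induced and 1, Npy itself, was called. For the difference of inductions 0 of 20 passed, with the lowest p for Scg2 at -0.20 (SE 0.06), Crh at -0.52 (SE 0.16) and Pdyn at -0.19 (SE 0.07).

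Of 42 genes that carry the signal from the synapse to the early genes, 1 was called in induced mice (2.38%, beside 5.80% of all tested genes), the NMDA receptor subunit Grin2b, lower in R47H_induced at -0.23 (SE 0.05). In control mice 4 were called (9.52%, beside 5.74%): Grin1, the obligatory NMDA receptor subunit, at -0.16 (SE 0.04), Ppp3ca, the catalytic subunit of calcineurin, at -0.12 (SE 0.03) and Camkk2 at -0.10 (SE 0.03) were lower in R47H_control, and Camk2d was higher at 0.10 (SE 0.03). For either induction and their difference 0 of 42 passed. The lowest p for the difference were those of Grin2b at -0.13 (SE 0.08), of the kinase Rps6ka2 at 0.10 (SE 0.06) and of Camk2a, a kinase of the postsynaptic density, at 0.18 (SE 0.11).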

How the data were processed

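Cortex RNA was extracted with Trizol, cleaned on columns with DNase, selected for poly-A and prepared with the TruSeq v2 kit, which does not mark strand, per the labels' protocols. The authors deposited raw read counts, whole numbers for each gene with no normalization, and STAR 2.5.2b, featureCounts 1.5.1 and build mm10 are named in the submitters' processing notes. Which strand setting and annotation release were used is not stated in the sources used here. Counting without strand leaves overlapping genes uncertain; by GENCODE vM21, Dusp5, Junb (7.52% of exon bases), Jun, Tiparp (5.12%), Plk3 (3.32%) and Dusp1 (0.332%) share exon bases with another gene, and the other members share none.

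The genotype and treatment labels defined the groups, and 0 columns of the table were left unused. Of 43346 genes, 9264 had no count. The 60 pairs of libraries within groups differed by more than sampling noise (chi-square per degree of freedom 4.31 to 61.7), so each counted as 1 replicate; p-values measure the spread between these libraries. Counts were scaled by TMM, filtered with filterByExpr and tested with edgeR 4.0.16 (limma 3.58.1, R 4.3.3), by the robust quasi-likelihood test over all 24 libraries with 5 contrasts, Benjamini-Hochberg adjusted over 19678 genes and called below 0.05. The fit was also run on simulated counts with known changes, for the induction in WT only. Its genes were drawn independently, unlike the members, so it does not bear on the genotype comparisons. Log2 fold changes carry their standard error (SE) and a 95% interval from it. For r, log2 of CPM with 0.01 CPM added was used, less the group mean. Levels, r and figures used Python 3.11.15 (numpy 2.4.6, scipy 1.17.1, pandas 2.3.3, matplotlib 3.10.9). Promoters were read from RefSeq.

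The members, lists and tests were chosen with earlier results of these data known. Given in full are Fos, Egr1, Arc, Npas4 and the 3 genes of each role with the lowest p for the difference of inductions; genes of other lists are those called, the 3 with the lowest such p, and the 10 most like the members in r. Alternatives were RLE size factors, library totals, 2 other filters, DESeq2 1.42.0, limma-voom, a non-robust fit, only the 12 libraries compared, the ribosomal-RNA-like share as a covariate, a threshold of 0.1, and leaving out every library in turn.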

Additional observations from a re-analysis of the deposited data

Results flagged for a closer look

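For the 36 genes and the ribosomal-RNA-like share in each of the 4 groups, the gap between the most extreme library and its nearest neighbour was set against the range of the 6 libraries (Dixon's test at its 95% critical value). Chance marks about 1 in 20 groups, and 11 of 148 were marked. In WT_control, replicate 4 was far below the rest for Nr4a1 at 37.1 CPM (next 80.7), Sik1 at 10.4, Plk2 at 144 and Atf3 at 0.446 CPM. In R47H_control, replicate 5 was far above the rest for Nr4a1 at 99.0 CPM (next 44.9) and Sik1 at 19.4 CPM (next 13.2), while replicate 6 was low for Plk3 at 6.18 CPM and replicate 2 low for Inhba at 3.32 CPM. In WT_induced, replicate 3 was low for Dusp4 at 8.39 CPM (next 11.9). In R47H_induced, Klf4 was high in replicate 2 at 5.48 CPM, and Trib1 was high in replicate 1 at 21.7 CPM.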

How the results depend on the processing

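Of 924 fold values of named members under other settings, 899 kept their direction and side of the threshold. Members called between genotypes in control mice numbered 5 under library totals, 1 without a filter, 4 with DESeq2, 1 with limma-voom (2 members then higher), 4 without robust fitting, 0 with the ribosomal-RNA-like share as a covariate, 0 with only the 12 libraries and 5 at a threshold of 0.1. Calls over all tested genes moved as well. In the same order they numbered 1333, 839, 1471, 1112, 1172, 451, 1001 and 1953, against 1129 in the main fit. Egr1 and Dusp6 were called lower there with library totals (adjusted p 0.0399 and 0.0331), with DESeq2 (0.0266 and 0.0209) and without robust fitting (0.0369 and 0.0349). Genes called numbered 10, 4 and 3 with DESeq2 for the induction in WT, in R47H and their difference, 1 for R47H with only the 12 libraries, 451 with the covariate between genotypes in control mice, and 1853 and 1953 at a threshold of 0.1 between genotypes in induced and control mice. The sign turned for 13 values, none of which had been called, and the cause was not tested. With library totals these were Inhba 0.0049 (induction in R47H), Egr4 0.0287 and Dusp6 0.03 (genotype in induced). Jun in WT turned to 0.0002 without a filter and 0.0009 with limma-voom, which also gave Egr2 0.1276 and Egr4 0.011 (genotype in induced). With the covariate they were Nr4a3 0.0299 (induction in WT), Npas4 0.0112 and Homer1 -0.0262 (induction in R47H), and Egr2 0.072, Egr4 0.0045 and Dusp6 0.001 (genotype in induced). With 1 library left out at a time, genes called ranged from 0 to 1 for the induction in WT, 0 to 2 in R47H and 0 to 1 for their difference; members higher from 6 to 18 for the induction in WT and from 1 to 4 for genotype in control, and members called there from 0 to 6. Values whose sign turned were, for the induction in WT, Fosl2 (-0.0153 to 0.1456), Jun (-0.0418 to 0.0312), Egr2 (-0.4407 to 0.0512), Nr4a2 (-0.0784 to 0.0176), Nr4a3 (-0.1288 to 0.083), Klf10 (-0.1357 to 0.0454), Dusp4 (-0.1826 to 0.0008), Dusp6 (-0.1693 to 0.0012) and Tiparp (-0.027 to 0.1648); for the induction in R47H, Homer1 (-0.0357 to 0.1176); for the difference, Npas4 (-0.0564 to 0.3444); and for genotype in induced, Fos (-0.0533 to 0.3929), Egr2 (-0.3383 to 0.1526), Egr4 (-0.1071 to 0.0822), Ier5 (-0.0134 to 0.0658), Dusp6 (-0.0895 to 0.0612) and Plk3 (-0.0072 to 0.0996). The motif counts were the same in the upstream 250 bases except for the TATA box, at 5 of 27. Atf3 and Maff, near 1 CPM, had the fewest reads. No paired analysis was possible because the labels give no replicate numbers shared between groups.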
